A study of Solanum tuberosum with 136 samples.

Results

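Primary buds of control potato tubers, stored without ethylene, were compared between week 15 and week 12 of storage. The comparison rests on 8 RNA-seq libraries, 4 per week, in a series of 34 groups of 4 libraries each, and they were chosen by the tissue, treatment and time point in their titles and by no measured value. All tubers were Solanum tuberosum of the single cultivar Russet Burbank, a potato grown for processing. The control buds of week 15 and week 12 differed only in storage time, as far as the labels say. Any batch of sampling, extraction or sequencing that ran with the week cannot be told apart from storage time. Ethylene buds of week 15 and week 12 came from tubers held continuously in ethylene at 10 ppm. Control flesh of week 15 and week 12 is the storage tissue of tubers without ethylene, and further control buds were sampled at weeks 0, 3, 6, 9, 16, 17 and 18. Buds sampled at weeks 16, 17 and 18 after ethylene came from tubers whose ethylene ended at week 15. Whether each of the 4 libraries stands for its own tubers or all 4 for a shared pool is not given in the labels. P-values of the gene tests measure the spread within groups over all bud libraries, or over all control libraries of both tissues where flesh enters. Exact permutation tests use only the 8 libraries compared. In either case the spread between libraries may be technical.

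A potato tuber is a swollen underground stem, and its eyes hold buds that are dormant after harvest and become able to sprout during storage. A bud contains a shoot meristem with young leaf primordia, whereas the flesh around it stores starch and protein. Ethylene is a gaseous plant hormone, and a low concentration in the storage air is known to hold back sprout growth. The comparison asks which transcripts differ between control buds 3 weeks apart late in storage. The gene IDs are printed as deposited, since none of them matched the gene name table at hand, and no function is given for any gene.

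The 8 libraries held between 28.2 and 36.7 M counts, and no libraries were identical. Levels are given as CPM, the gene's counts as a share of the scaled library total, and can be compared between libraries of 1 gene but not between genes of different length. Within a week, the median gene had an SD of 0.14 log2 units over the 4 libraries at week 15 and 0.16 at week 12. The libraries of a week lay closer to each other than to those of the other week. Replicate 1 of week 12 was the nearest to week 15, with a mean root-mean-square distance of 0.473 log2 units to its 4 libraries, against 0.536 to 0.552 for replicates 2 to 4. Outside these 8 libraries, 1 bud library of week 17 after ethylene stood apart (lowest correlation within its group 0.824), and it enters the estimate of spread behind the tests of buds.

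In the fit of all bud libraries, week 15 buds differed from week 12 buds at about 1 in every 5 genes tested. The differences ran in both directions and were mostly small. Of 24328 genes tested, 4939 (20.3%) passed the threshold of 0.05 on the adjusted p of edgeR's quasi-likelihood test, and 7841 had an unadjusted p under 0.05. Genes past the threshold numbered 6581 in a fit of the 8 libraries alone, and 7140 without the week 17 library that stood apart. The calls in the fit of all bud libraries comprised 2346 genes higher (9.64%) and 2593 genes lower (10.7%) at week 15. With the size factors of DESeq2 the split was 2528 higher and 2323 lower, and with a minimum count of 50 it was 2712 higher and 2261 lower, so that no excess in either direction holds. The median fitted log2 fold change was 0.71 among the higher genes and -0.60 among the lower genes. Calls of at least 2-fold numbered 783 higher (3.22%) and 709 lower (2.91%), and calls of at least 4-fold numbered 339 higher and 250 lower. For 13328 of the 23823 genes with counts in these libraries (55.9%), the 95% interval of the log2 fold change lay between -1 and 1. That interval rests on an SE derived from the fold change and the F statistic of the test.

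The 4 libraries of week 15 lay above all 4 of week 12 in 3747 genes (15.4% of those tested), of which 2036 were called higher. They lay below all 4 of week 12 in 3347 genes (13.8%), of which 2236 were called lower. A group of 86 genes had counts in all 4 week 15 libraries and 0 counts in all 4 week 12 libraries, and 39 of these averaged at least 1 CPM at week 15. In the reverse pattern, 39 genes had 0 counts in all 4 week 15 libraries and counts in all 4 week 12 libraries, and 10 of them averaged at least 1 CPM at week 12. Low counts above 0 were rare in the deposited table: over all genes of the 8 libraries, 85246 values were 0, none was 1, 63 were 2 and 344 were 3, against 1127 at 10. How the counting step treated weakly covered genes was not tested, so a 0 is given as listed and sets no limit on the level.

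**Figure D1:**
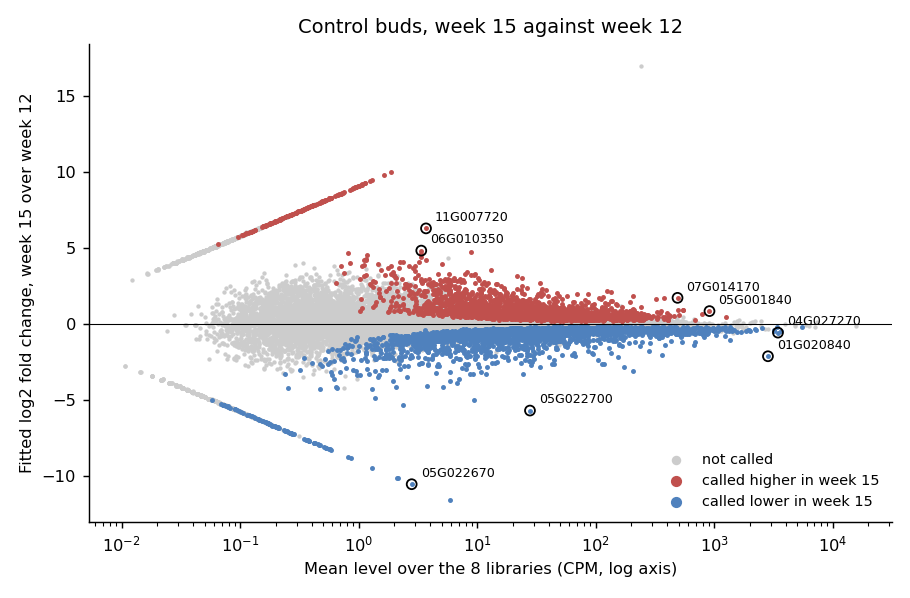
Fitted log2 fold change of week 15 over week 12 in control buds (vertical axis) against the mean level of each gene over the 8 libraries (CPM, log axis). Red and blue points are the 2346 genes called higher and the 2593 called lower, grey points were not called, and circles mark 8 genes described in the text; the slanted lines of points are genes at 0 counts in 1 of the weeks, whose fitted fold is no measured size.

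Among genes of at least 5 CPM whose libraries did not overlap, Soltu.DM.11G007720 and Soltu.DM.06G010350 had the largest fitted folds upward. Soltu.DM.11G007720 stood at 3.18, 8.23, 7.38 and 10.4 CPM in the week 15 libraries, against 0, 0, 0.348 and 0 CPM in the week 12 libraries. The gene was listed at 0 in 3 of the 4 libraries of week 12 and varied about 3-fold among those of week 15. Its log2 fold change was 6.29 ± 0.97 (SE; edgeR adjusted p = 7.95e-06), from 992 counts at week 15 and 12 counts at week 12. In control buds of weeks 0, 3 and 6 all libraries were at 0 counts, and those of week 9 stood at 0, 0.523, 0.472 and 0 CPM. At weeks 16, 17 and 18 it averaged 8.16 ± 2.47, 10.8 ± 1.9 and 9.17 ± 3.14 CPM (SD, n = 4 each). Soltu.DM.06G010350 stood at 2.61, 7.55, 6.85 and 9.06 CPM at week 15, against 0.889, 0, 0 and 0 CPM at week 12. Every control bud library of weeks 0 to 9 was at 0 counts for it, and its mean at weeks 16, 17 and 18 was 3.49, 3.84 and 2.16 CPM. Its log2 fold change was 4.82 ± 1.06 (SE; edgeR adjusted p = 0.00119). For each of these 2 genes a single library held all week 12 counts, so the fitted fold grows to a log2 value of 10.9 and 10.7 when that library is left out and is no measured size.

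Soltu.DM.05G022670 and Soltu.DM.05G022700 had the largest fitted folds downward. Soltu.DM.05G022670 had 0 counts in all 4 libraries of week 15, against 5.37, 5.26, 4.91 and 6.84 CPM in those of week 12. The gene was called lower at week 15 (edgeR adjusted p = 1.52e-07), from 0 counts at week 15 and 733 counts at week 12, and no fold is given against a group listed at 0. It averaged 246, 36.5, 18.7 and 2.69 CPM at weeks 0, 3, 6 and 9, and every control bud library of weeks 16 to 18 was at 0 counts. Soltu.DM.05G022700 stood at 1.20, 0.555, 0.629 and 1.69 CPM at week 15, against 55.5, 60.1, 55.6 and 47.5 CPM at week 12. Its log2 fold change was -5.71 ± 0.41 (SE; edgeR adjusted p = 2.18e-16). This gene averaged 409 CPM at week 0 and 44.2 CPM at week 9, and between 0.902 and 1.31 CPM at weeks 16 to 18. In both genes the week 12 mean lay above the week 9 mean, and the week 15 level was held in the later weeks.

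**Figure D2:**
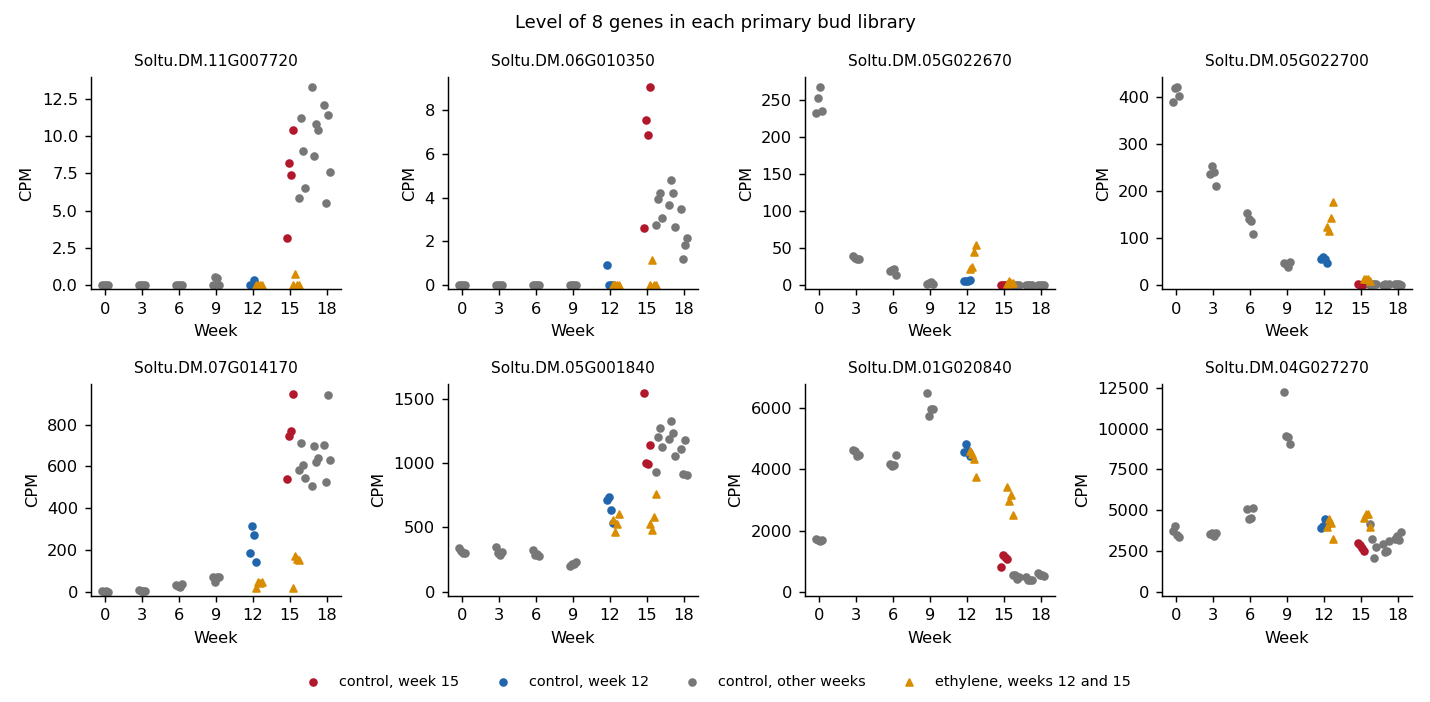
Level of 8 genes (CPM, linear axes from 0) in each primary bud library against storage week. Circles are control buds, with week 15 in red and week 12 in blue, and triangles are ethylene buds of weeks 12 and 15. All 8 genes were chosen by their values in the controls of weeks 15 and 12. Those of largest fold had to show no overlap between these weeks.

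Abundant transcripts moved as well. Soltu.DM.07G014170 gained most in CPM, with 538, 747, 770 and 947 CPM at week 15, against 186, 314, 269 and 144 CPM at week 12. Its log2 fold change was 1.71 ± 0.38 (SE; edgeR adjusted p = 0.00059). The gene averaged 1.20 CPM at week 0 and 65.4 CPM at week 9, and 611, 617 and 700.1 CPM at weeks 16, 17 and 18. Soltu.DM.05G001840 stood at 1546, 999.6, 994 and 1136 CPM at week 15, against 709.6, 736, 632 and 531 CPM at week 12. It changed by a log2 value of 0.84 ± 0.12 (SE; edgeR adjusted p = 4.8e-07). Its mean was 313 CPM at week 0, 215 CPM at week 9 and between 1029 and 1199 CPM at weeks 16 to 18.

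The largest loss in CPM was that of Soltu.DM.01G020840, at 809, 1193, 1148 and 1067 CPM in week 15 buds and 4557, 4839.8, 4619 and 4455 CPM in week 12 buds. The log2 fold change was -2.13 ± 0.15 (SE; edgeR adjusted p = 2.31e-17). The gene averaged 1693 CPM at week 0 and 6055 CPM at week 9, and 496, 412 and 553 CPM at weeks 16, 17 and 18. Ethylene buds averaged 3023 ± 393 CPM at week 15 and 4302 ± 387 CPM at week 12 (SD, n = 4 each). Soltu.DM.04G027270 stood at 2969.9, 2882, 2687 and 2523 CPM at week 15, against 3898, 4037, 4453 and 4101 CPM at week 12. Its log2 fold change was -0.58 ± 0.15 (SE; edgeR adjusted p = 0.00291), with a mean of 10081 CPM at week 9 before the step. At weeks 16, 17 and 18 it averaged 3046 ± 877, 2733 ± 306 and 3368 ± 222 CPM (SD, n = 4 each), and its 4 libraries of week 18, at 3187 to 3664 CPM, lay above those of week 15.

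The calls leaned downward among genes of at least 100 CPM. Of the 86 genes averaging at least 1000 CPM over the 8 libraries, 37 were called lower and 1 higher. Between 100 and 1000 CPM, 496 of 1796 genes were called lower (27.6%) and 261 higher (14.5%). Between 10 and 100 CPM the shares were 14.6% lower and 15.9% higher of 9000 genes. With the size factors of DESeq2, 34 of the 86 were called lower and 1 higher, and between 100 and 1000 CPM 24.4% were called lower and 15.9% higher. All genes called lower summed to 222488 CPM at week 15, against 315978 CPM at week 12. All genes called higher summed to 128483 CPM at week 15, against 83146 CPM at week 12. These 2 sums are descriptions, since the calls chose the genes. The scaling of CPM does not hold the total over all genes equal between the weeks. Over all genes tested, gains in mean CPM summed to 76338 and losses to -137658. How far the loss exceeds the gain therefore depends on the scaling.

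Library composition, measured on unscaled library totals, shifted in the same weeks. The scaling factors behind the CPM of single genes were 1.04 to 1.08 at week 15 and 0.99 to 1.002 at week 12. Genes at 1 CPM or more were not counted on scaled totals. The 100 most abundant genes of a library held 20.1% ± 0.5 of its counts at week 15 and 21.97% ± 0.1 at week 12 (SD, n = 4 each; exact permutation test, two-sided p = 0.0286, the smallest that 4 against 4 libraries allow; 0.0429 after adjustment over 6 measures). The number of genes at 1 CPM or more was 19188 ± 98 at week 15 and 18690 ± 74 at week 12 (SD; exact permutation p = 0.0286, adjusted 0.0429). The effective number of genes, the exponential of the Shannon entropy of the counts, was 4760.5 ± 131.5 at week 15 and 4216 ± 25 at week 12 (exact permutation p = 0.0286, adjusted 0.0429). The share held by the 10 most abundant genes was 6.64% ± 0.13 at week 15 and 6.84% ± 0.18 at week 12, a difference that did not pass the exact permutation test (p = 0.143).

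To place the libraries along the course of storage, each was projected on an axis of 3799 genes whose means at weeks 9 and 18 differed, scaled so that the mean of week 9 lies at 0 and that of week 18 at 1. The 8 libraries of weeks 15 and 12 took no part in choosing the axis. The position was 1.02 to 1.07 at week 15 (mean 1.03 ± 0.03, SD) and 0.577 to 0.684 at week 12 (mean 0.61 ± 0.05), with no overlap (difference 0.42; exact permutation test, two-sided p = 0.0286, the smallest possible, n = 4 each). Week 15 buds therefore lay at the position of week 18 buds, whereas week 12 buds lay between weeks 9 and 18. The mean positions of weeks 0, 3, 6, 9, 16, 17 and 18 were 0.49, 0.46, 0.07, 0, 1.03, 1.10 and 1, in that order. Ethylene buds lay at 0.54 ± 0.06 at week 15 and 0.52 ± 0.06 at week 12 (SD, n = 4 each), with overlapping ranges, and their difference from the control step in position was not tested.

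**Figure D3:**
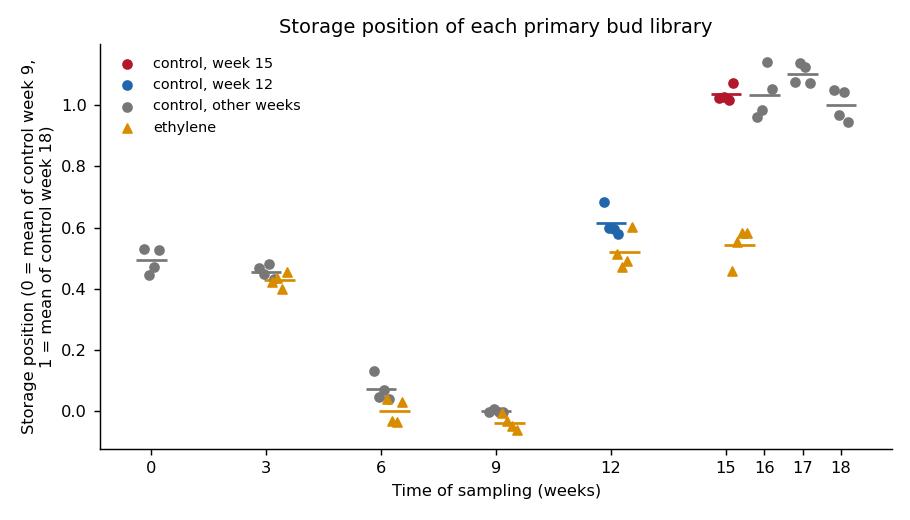
Storage position of each primary bud library (points, 4 per group, with the group mean as a line) against the week of sampling; 0 is the mean of control week 9 and 1 that of control week 18. The week 15 controls lie at 1.02 to 1.07 and the week 12 controls at 0.577 to 0.684, while ethylene buds (triangles) average 0.54 at week 15 and 0.52 at week 12.

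The genes that moved by at least 2-fold in the step were followed in weeks that share no library with it. Of the 783 higher genes, 719 (91.8%, and 9.24% of all genes so called) were also called higher at week 18 than at week 9, where the background over all genes tested was 32%, and 1 was called lower. At week 18 against week 0, 587 (74.97%) of them were called higher (background 25.2%) and 16 lower. Between weeks 9 and 0 they had no shared direction, with 186 (23.8%) called higher and 247 (31.5%) lower, against a background of 25.8% higher and 28.6% lower. Their median level on the log2(CPM + 2) scale was 3.64 at week 15 and 2.35 at week 12, and it lay between 1.48 and 1.67 at weeks 0 to 9 and between 3.22 and 3.41 at weeks 16 to 18.

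Of the 709 genes at least 2-fold lower in the step, 385 (54.3%, and 7.19% of all genes so called) were called lower at week 18 than at week 9 (background 22%) and 50 (7.05%) higher. At week 18 against week 0, 417 (58.8%) were called lower (background 19.9%). Between weeks 18 and 16, where 0.477% of genes were called in all, with 72 higher (0.296%) and 44 lower (0.181%), 29 of these 709 genes were called higher and 3 lower. The 29 are 40.3% of those 72 genes and 4.09% of the list. The median level of the list was 2.18 at week 15 and 3.32 at week 12, and 2.31, 2.38 and 2.48 at weeks 16, 17 and 18 on the log2(CPM + 2) scale.

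The wider lists, with changes of any size, were more often called the other way earlier in storage. Of the 2346 genes called higher in the step, 1398 (59.6%) were called lower at week 9 than at week 0 (background 28.6%) and 347 (14.8%) higher. Of the 2593 genes called lower in the step, 1498 (57.8%) were called higher at week 9 than at week 0 (background 25.8%) and 508 (19.6%) lower. The 709 genes at least 2-fold lower in the step did not share this lean, since in week 9 against week 0 the calls were 221 higher (31.2%) and 258 lower (36.4%). At week 18 against week 9, 90.1% of the genes higher in the step were called higher, and 75.01% of the genes lower in the step were called lower.

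**Figure D4:**
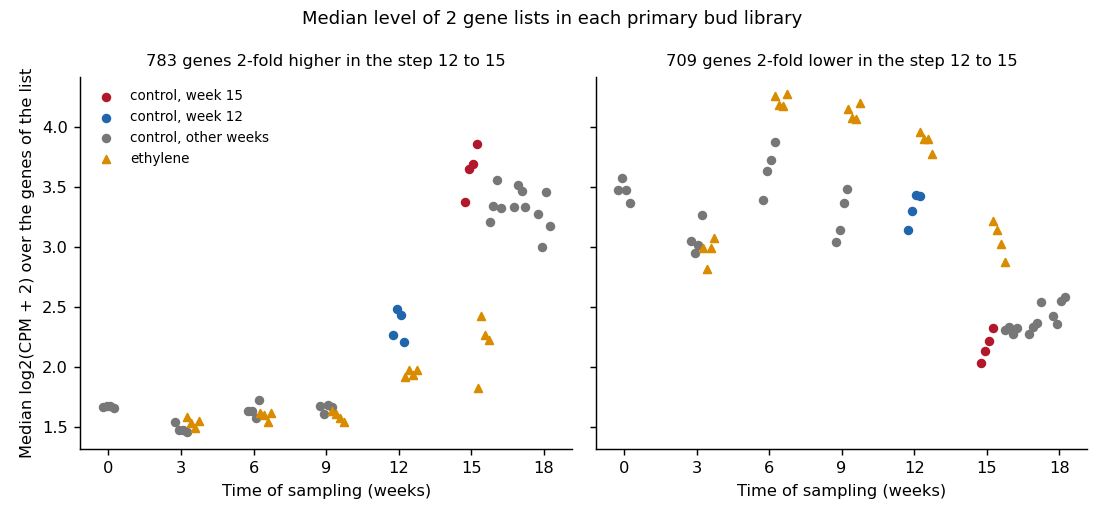
Median level, on the log2(CPM + 2) scale, of the 783 genes at least 2-fold higher (left) and the 709 genes at least 2-fold lower (right) in the step, in each primary bud library against the week of sampling. Weeks 15 and 12 of the controls (red and blue) chose the lists; in weeks that did not, the left list averages 3.22 to 3.41 in control buds at weeks 16 to 18, against 1.48 to 1.67 at weeks 0 to 9.

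In the fit of all bud libraries, the step lay between a larger and a much smaller one. Week 12 against week 9 called 10426 genes (42.9%), with 6236 higher and 4190 lower. Week 16 against week 15 called 163 genes (0.67%), of which 39 were lower and the others higher, although 1979 had an unadjusted p under 0.05. Later steps of 1 week called 6 genes (0.0247%) at week 17 against week 16 and 61 (0.251%) at week 18 against week 17. These intervals are shorter than the 3 weeks of the step, and week 18 against week 15, an equal interval, called 1899 genes (7.81%). Earlier steps of 3 weeks called 6455 genes at week 3 (26.5%), 11908 at week 6 (48.9%) and 4600 at week 9 (18.9%), each against the time before. Consecutive steps share the libraries of the week between them. The fit behind these counts includes the week 17 library after ethylene that stood apart. Without that library the step from week 12 to week 15 called 7140 genes, and the other steps were not recounted.

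**Figure D5:**
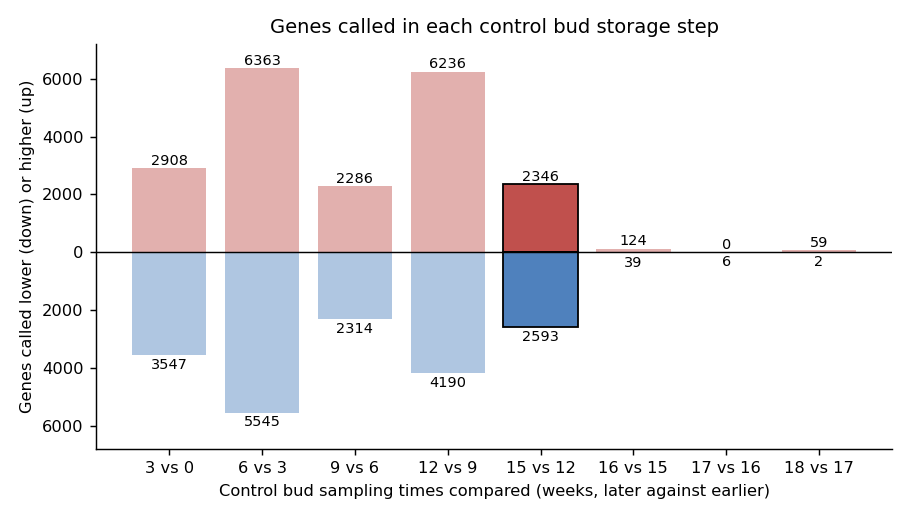
Number of genes called higher (upward bars) and lower (downward bars) by edgeR in each comparison of consecutive control bud sampling times. The step from week 12 to week 15 is outlined, with 2346 genes higher and 2593 lower; the last 3 comparisons span 1 week each.

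The step of similar size with no library in common is that of week 9 against week 6, and the steps differed in content. A test of the difference, the step 12 to 15 minus the step 6 to 9, called 4928 genes (20.3%), with 2329 more positive and 2599 more negative in the later step. Soltu.DM.08G019310 stood at 29.9, 47.2, 36.4 and 53.2 CPM at week 15, against 12.2, 16.7, 14.7 and 9.64 CPM at week 12. In the earlier step it stood at 2.54, 1.52, 2.45 and 2.24 CPM at week 9, against 12.1, 8.89, 11.2 and 9.67 CPM at week 6. The gene was called higher in the later step and lower in the earlier one, a log2 difference of 3.89 ± 0.37 (SE; edgeR adjusted p = 4.2e-12). Soltu.DM.01G045900 differed by a log2 value of 3.85 ± 1.01 (SE; edgeR adjusted p = 0.00393) through the earlier step alone, since it averaged 1.55 CPM at week 15 and 1.79 CPM at week 12, with 0.593 CPM at week 9 and 10.2 CPM at week 6.

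Soltu.DM.03G033490 stood at 1.09, 0.294, 0.861 and 1.01 CPM at week 15, against 9.32, 15.6, 10.0 and 9.11 CPM at week 12. Its mean of 8.68 CPM at week 9 and 5.99 CPM at week 6 was not called different. The log2 difference between the steps was -4.28 ± 0.63 (SE; edgeR adjusted p = 5.13e-07). Soltu.DM.09G026520 stood at 0.272, 0.947, 0.53 and 0.547 CPM at week 15, against 15.6, 18.0, 19.9 and 18.9 CPM at week 12. It was called lower in both steps, with 24.8 CPM at week 9 and 43.1 CPM at week 6, and fell further in the later one (log2 difference -4.19 ± 0.40, SE; edgeR adjusted p = 6.58e-12).

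In ethylene buds fewer genes were called over the same weeks than in control buds. Week 15 against week 12 called 2359 genes (9.7%) under ethylene, with 1166 higher and 1193 lower. That count was made only in the fit of all bud libraries. The test of the difference, the step in control buds minus the step in ethylene buds, called 2314 genes (9.51%), with 973 more positive and 1341 more negative in control buds. Without ethylene week 12 replicate 4 the count was 1462, and without the week 17 library after ethylene that stood apart it was 4176. With the size factors of DESeq2 the split was 1131 more positive and 1024 more negative, so that no excess in either direction holds. The control and ethylene steps share no library. Of the 709 genes at least 2-fold lower in control buds, 319 (44.99%, and 26.7% of all genes called lower under ethylene) were also called lower under ethylene, against a background of 4.9%. Of the 783 genes at least 2-fold higher in control buds, 14.6% (these being 9.78% of all genes called higher under ethylene) were called higher under ethylene, against a background of 4.79%. The median level of the higher list under ethylene was 2.18 ± 0.26 at week 15 and 1.95 ± 0.03 at week 12, and 3.25 ± 0.10 at week 16, when the ethylene had ended 1 week before (SD over 4 libraries, log2(CPM + 2) scale).

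Soltu.DM.04G026490 had the most positive difference between the steps. It stood at 3.29, 7.12, 5.23 and 8.15 CPM in control buds of week 15 and 3.5, 3.06, 2.38 and 3.90 CPM in those of week 12, which overlap. In ethylene buds it stood at 4.45, 1.17, 0 and 0.671 CPM at week 15 and 18.7, 7.66, 14.1 and 23.3 CPM at week 12. The log2 difference was 4.22 ± 0.93 (SE; edgeR adjusted p = 0.00167), and only the ethylene step was called, downward. Soltu.DM.03G016750 stood at 0.815, 2.45, 4.90 and 13.5 CPM in control buds of week 15 and 8.21, 18.3, 21.1 and 16.9 CPM in those of week 12. In ethylene buds it stood at 80.2, 75.2, 40.7 and 47.1 CPM at week 15 and 26.3, 11.5, 7.39 and 3.05 CPM at week 12. Neither step was called alone, and the log2 difference was -3.91 ± 1.21 (SE; edgeR adjusted p = 0.0295).

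Soltu.DM.08G003250 behaved alike, at 5.03 to 52.4 CPM in control buds of week 15 and 35.3 to 66.9 CPM in those of week 12, and at 89 to 252 CPM in ethylene buds of week 15 and 12.2 to 97.4 CPM in those of week 12 (log2 difference -3.15 ± 1.04, SE; edgeR adjusted p = 0.0413). Soltu.DM.04G026480 stood at 78.2, 7.02, 4.90 and 5.31 CPM in control buds of week 15 and 3.27, 1.63, 1.65 and 1.52 CPM in those of week 12. One library, replicate 1, thus set most of its mean at week 15. The log2 difference from the ethylene step was 3.45 ± 1.08 (SE; edgeR adjusted p = 0.0317), and 1.39 with an adjusted p of 0.446 without that library. In control buds of weeks 16, 17 and 18 the gene averaged 50.9 ± 13.1, 73.1 ± 13.6 and 59.9 ± 11.7 CPM (SD, n = 4 each). The call was lost under 9 of 23 alternatives for Soltu.DM.04G026480, 7 for Soltu.DM.03G016750 and 10 for Soltu.DM.08G003250, most of them single libraries left out, and under none of the 23 for Soltu.DM.04G026490.

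Control flesh, tested in a joint fit of both tissues, changed in 5383 of 24153 genes (22.3%) at week 15 against week 12. The same fit called 5627 genes (23.3%) in control buds. The difference, the bud step minus the flesh step, was called in 2601 genes (10.8%), with 1307 more positive and 1294 more negative in buds; in a fit of only the 4 groups compared the count was 1617. Of the genes at least 2-fold lower in buds and tested in flesh, 305 of 706 (43.2%, and 10.1% of all genes called lower in flesh) were called lower in flesh, against a background of 12.6%. Of the 783 at least 2-fold higher in buds, 13.5% (these being 4.51% of all genes called higher in flesh) were called higher in flesh, against a background of 9.73%, and 49 (6.26%) lower.

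The genes with the largest difference between the tissues' steps are given in CPM scaled over both tissues. Soltu.DM.01G035630 stood at 167, 207, 184 and 257 CPM in buds of week 15 and 44.1, 50.2, 54 and 44.8 CPM in buds of week 12. In flesh it stood at 1.34, 1.07, 0.571 and 1.43 CPM at week 15 and 5.08, 6.08, 6.25 and 5.4 CPM at week 12. The gene was called higher in buds and lower in flesh (log2 difference 4.44 ± 0.40, SE; edgeR adjusted p = 1.97e-12). Soltu.DM.11G011790 averaged 4.21 CPM in buds of week 15 and 6.23 CPM in buds of week 12, a difference not called, and fell in flesh to 1.77 CPM at week 15, against 47.2 CPM at week 12 (log2 difference 4.15 ± 0.38, SE; edgeR adjusted p = 1.97e-12).

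Soltu.DM.10G029220 fell in buds to 19.2, 17.8, 28.3 and 25.8 CPM at week 15, against 91.2, 99.2, 82.7 and 104.7 CPM at week 12. In flesh it was called higher, at 11.3, 9.16, 6.82 and 6.82 CPM at week 15, against 4.17, 4.03, 2.62 and 5.61 CPM at week 12 (log2 difference -3.12 ± 0.43, SE; edgeR adjusted p = 2.82e-07). Soltu.DM.11G002350 fell in buds to 1.27 to 2.21 CPM at week 15, against 7.54 to 14.4 CPM at week 12, while flesh averaged 1.52 CPM at week 15 and 1.21 CPM at week 12, not called (log2 difference -3.28 ± 0.84, SE; edgeR adjusted p = 0.00525).

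The tissue label was checked with genes that separated bud and flesh at week 0, since the IDs could not be matched to cell type markers. Their sums are given in CPM of the unscaled library total. The 41 genes at least 16-fold higher in bud than in flesh summed to 2330.4 ± 355 CPM in buds of week 15 and 3588 ± 290 CPM in buds of week 12 (SD, n = 4 each; exact permutation test, two-sided p = 0.0286, adjusted 0.0429). The 2 weeks did not overlap, at no more than 2842 CPM at week 15 and no less than 3211 CPM at week 12. Without week 12 replicate 3 they still did not overlap, and the exact permutation p was 0.0571, since 2 of the 35 possible splits lay as far apart. In control flesh the same sum was 128.6 CPM at week 15 and 192 CPM at week 12, so the 8 libraries stood on the side of bud. The 19 genes at least 4-fold higher in flesh summed to 816 ± 110 CPM in buds of week 15 and 1067 ± 135.4 CPM in buds of week 12 (SD, n = 4 each; exact permutation p = 0.0571, adjusted 0.0686), against 3833 CPM in flesh of week 15 and 5035 CPM in flesh of week 12. No gene of either list was at 0 in any of the 8 libraries. Both sums were lower at week 15, and their part in the calls was not tested. In bulk tissue, fewer cells of a type and less RNA per cell cannot be told apart.

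The IDs carry the chromosome number, and their order was read for neighbours called at least 2-fold in the same direction. Of the 783 higher genes 634, and of the 709 lower genes 514, had no such neighbour among the tested IDs. The others stood in runs, and whether these exceed what the overall shares would give was not tested. Runs of at least 4 neighbouring tested IDs called at least 2-fold in 1 direction numbered 8, with 35 genes. The longest, from Soltu.DM.08G027250 to Soltu.DM.08G027300 on chromosome 8, held 6 genes lower at week 15, with log2 fold changes from -2.82 to -1.64. The run from Soltu.DM.07G014150 to Soltu.DM.07G014220 on chromosome 7 held 5 genes higher, among them Soltu.DM.07G014170, and summed to 1844 CPM at week 15, against 576 CPM at week 12. The run from Soltu.DM.04G026420 to Soltu.DM.04G026480 on chromosome 4 held 4 genes higher, none of which was called without week 15 replicate 1. Soltu.DM.04G026420 stood at 17.3 CPM in that library and at 2.08 to 2.19 CPM in the other 3 of week 15, against 0.319 to 1.61 CPM at week 12. Without that library its log2 fold change was 1.19 ± 0.80 (SE; edgeR adjusted p = 0.337). It was 1.48 ± 0.71 for Soltu.DM.04G026480 (SE; edgeR adjusted p = 0.149) and 2.07 ± 0.91 for Soltu.DM.04G026440 (SE; edgeR adjusted p = 0.115). In these 3 genes the other 3 libraries of week 15 still lay above all 4 of week 12. The remaining gene, Soltu.DM.04G026460, was listed at 0 in every week 12 library, so its fold is no measured size (edgeR adjusted p = 0.0602 without that library). Whether neighbouring IDs are copies that share reads was not tested. By chromosome, the share of tested genes at least 2-fold lower was highest on chromosome 9 (4.54%) and lowest on chromosome 6 (1.73%), and the share at least 2-fold higher ran from 2.38% on chromosome 5 to 4.20% on chromosome 2.

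Transcript shares, the percentage of a gene's counts assigned to each of its transcripts, changed in few genes. Of 5690 genes with at least 2 transcripts tested, 38 (0.668%) were called by edgeR's test of differential transcript usage, and 973 had an unadjusted p under 0.05. Of the 38, 28 were not called in the gene counts. Among the 33 with at least 5 CPM in both weeks, the median of the largest shift in share was 13.7 percentage points, and the most abundant transcript differed between the weeks in 4. The count of called genes was unstable: it was 21 and 8 without week 15 replicates 1 and 2, and 9, 6, 6 and 4 without week 12 replicates 1, 2, 3 and 4.

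The largest shifts were complete switches. In Soltu.DM.06G031580, transcript Soltu.DM.06G031580.2 held 100% of the counts in all 4 libraries of week 15 and 0% in all 4 of week 12, with the gene at 14.1 CPM at week 15 and 14.04 CPM at week 12. In Soltu.DM.11G003150, transcript Soltu.DM.11G003150.1 held 100% in all 4 libraries of week 15 and 0% in all 4 of week 12 (edgeR adjusted p = 0.0113, against 0.0288 for the other gene). The level of Soltu.DM.11G003150 was not constant, at 13.2 CPM at week 15 and 6.72 CPM at week 12. It was called higher in the gene counts (log2 fold change 0.886, edgeR adjusted p = 0.01). Replicates of other groups were split in the same all-or-none manner. At week 17 transcript Soltu.DM.06G031580.2 held over 99% of the counts in 2 of the 4 control bud libraries and under 1% in the other 2, and at week 18 transcript Soltu.DM.11G003150.1 was split 2 against 2 likewise.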

How the data were processed

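Total RNA of primary buds and flesh was extracted with a Qiagen plant RNA kit (RNeasy) before sequencing, per the labels' protocols. StringTie, SAMtools, HISAT2 and Trimmomatic appear in the submitters' processing notes, with neither version nor role. Not given in the sources used here are the genome build, the annotation and the handling of reads shared by copies, overlapping or antisense genes. Counts per gene and per transcript were deposited by the authors and taken as unnormalized because the values are whole numbers with different totals per library. The row without a gene held between 2.09% and 2.34% of the counts of the 8 libraries and was left out. Numbers in the titles were read as weeks.

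Scaling for CPM was by trimmed mean of M-values. The unscaled library total was used for library composition, the bud- and flesh-enriched sums and the gene levels given with transcript shares. The gene test was the quasi-likelihood test of edgeR 4.0.16 under R 4.3.3 (minimum count 10, minimum total 15, Benjamini-Hochberg threshold 0.05) in a fit of all 68 bud libraries (51 residual degrees of freedom), or of the 72 control libraries of both tissues (54) where flesh enters. The SE of a log2 fold change or log2 difference is its absolute value divided by the square root of the test's F statistic. It is thus not an SE printed by the fit. Transcript shares were tested with edgeR's diffSpliceDGE. Single values over 4 against 4 libraries had exact permutation tests. The log2 scale used a pseudocount of 2. The scripts were tested on simulated data. Named genes were at most 2 IDs per direction and measure: called, not overlapping, at least 5 CPM and largest fold; largest gain or loss in CPM; and, for differences between steps, at least 0.5 CPM in every group, at least 5 CPM in 1, and most extreme difference. The members and lists were chosen with earlier results of these data known. The 4-fold flesh list and the 16-fold bud list were added after seeing the data, since the planned 16-fold flesh list holds 0 genes. The size-factor counts by level and the fit of the chromosome 4 run without 1 library were also added after seeing the data. None of the gene IDs matched the name table (0 matches), so pathway lists were not tested.

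Alternatives were size factors and Wald test of DESeq2 1.42.0, other count filters, fits of only the groups compared, a replicate block, libraries left out, and other axes and pseudocounts.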

Additional observations from a re-analysis of the deposited data

Results flagged for a closer look

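In 78 groups of 4 libraries looked at for a library far from the other 3, 8 held one; chance gives about 1 group in 20, a rate that does not apply to 2 of the 8, where the other 3 libraries were at 0. Of these, 3 concern week 12 replicate 1 of the control buds: Soltu.DM.04G026480 stood there at 3.27 CPM, against 1.52 to 1.65 CPM in the other libraries of the week, Soltu.DM.06G010350 at 0.889 CPM, against 0, and the sum of the 19 flesh-enriched genes at 865 CPM, against 1118 to 1146 CPM. Soltu.DM.04G026480 also stood at 78.2 CPM in week 15 replicate 1, against 4.90 to 7.02 CPM in the other 3. The storage position of week 15 replicate 4 was 1.07, against 1.02 in the other 3. At week 12, Soltu.DM.03G033490 stood at 15.6 CPM in replicate 2, against 9.11 to 10.0 CPM, Soltu.DM.11G007720 at 0.348 CPM in replicate 3, against 0, and Soltu.DM.11G002350 at 7.54 CPM in replicate 4, against 13.5 to 14.4 CPM.

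The step differed, by a test of the difference with edgeR, from the step 6 to 9 of control buds in 4928 genes, from the step of ethylene buds in 2314 and from the step of flesh in 2601. Among named genes, the log2 difference from the step 6 to 9 was 3.89 for Soltu.DM.08G019310, 3.85 for Soltu.DM.01G045900, -4.28 for Soltu.DM.03G033490 and -4.19 for Soltu.DM.09G026520. The log2 difference from ethylene buds was 4.22 for Soltu.DM.04G026490, 3.45 for Soltu.DM.04G026480, -3.91 for Soltu.DM.03G016750 and -3.15 for Soltu.DM.08G003250. The log2 difference from flesh was 4.44 for Soltu.DM.01G035630, 4.15 for Soltu.DM.11G011790, -3.28 for Soltu.DM.11G002350 and -3.12 for Soltu.DM.10G029220.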

How the results depend on the processing

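The count of genes called in the step, 4939 in the fit of all buds, ran from 4749 without a filter on low counts to 6581 in a fit of the 8 libraries alone, was 7140 without the week 17 library that stood apart, and ran from 3644 to 4882 with 1 of the 8 libraries left out. Leaving out a library also raises the number of genes tested. Against the step 6 to 9 the count was 6779 without the week 17 library and 5819 in a fit of only the groups compared, and ran from 4254 to 4922 with 1 library left out. Against ethylene buds it was 4176 without the week 17 library and ran from 1462 to 2408 with 1 library left out. Against flesh it was 1617 in a fit of only the groups compared and ran from 2021 to 2657 with 1 library left out. Genes with changed transcript shares ran from 4 to 31 with 1 library left out. The share of counts in the 50 most abundant genes was 1.20 percentage points lower at week 15 (difference -1.20; exact permutation p = 0.0286), which passed where that of the 10 most abundant did not. The bud-enriched difference ran from -1428 to -1159 CPM with 1 library left out with an exact permutation p of 0.0571 without week 12 replicate 3, where the groups still did not overlap and 4 against 3 libraries allow steps of 0.0286. The planned flesh list and its 64-fold alternative hold 0 genes and gave no value. The cause of these shifts was not tested. Among the genes named by the rule for the step and its differences, none changed direction under any alternative run, and the calls lost were those of Soltu.DM.04G026480, Soltu.DM.03G016750 and Soltu.DM.08G003250. Genes named for transcript shares were not followed singly.

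Replicate numbers were not taken as pairs. The deviations of same-numbered libraries correlated between -0.027 and 0.215, and those of different-numbered libraries between -0.221 and 0.171. The highest value was that of replicate 1 in both weeks, and so few values cannot exclude a pairing. With the replicate number as a block the step called 5081 genes, and 6042 in the 8 libraries alone. The block left 18 genes with changed transcript shares.

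At 28.2 to 36.7 M counts per library, counting error is large for named genes with few counts, such as Soltu.DM.11G007720 with 12 counts over week 12, and values listed at 0 set no limit, since counts of 1 to 3 were rare in the deposited table.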

Other observations

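Soltu.DM.06G005570, picked after its values were seen, stood at 0, 669.9, 647 and 626 CPM in the week 15 libraries and at 0 in all 4 of week 12. It was not called (edgeR adjusted p = 0.0727), and no fold is given. Over all 68 bud libraries it was at 0 counts in 42 and between 444 and 765 CPM of the library total in the other 26, with no value between. Over the 68 flesh libraries it was at 0 in 38 and between 458 and 691 CPM in the other 30. Among genes called in the step, 1 had 0 counts in 1 library and at least 5 CPM in another of the same week. It is Soltu.DM.10G018680, at 0 in all 4 libraries of week 15 and at 13.1, 20.96, 0 and 12.7 CPM at week 12. Among the 33 genes of at least 5 CPM with changed transcript shares, 2 held a transcript over 99% in 1 of the 8 libraries and under 1% in another. These 2 are Soltu.DM.06G031580 and Soltu.DM.11G003150, named above, whose switch lay between the weeks and not within a week.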
